A study of Mus musculus with 6 samples.

Results

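The cytosolic ribosome is built from ribosomal RNA and a fixed set of proteins, each encoded by its own nuclear gene, with the Rps genes giving the small (40S) subunit and the Rpl genes the large (60S) subunit. The genes described here were taken by a rule on symbols: every Rps, Rpl, Rplp or Rpsa gene of the table, with its like and numbered paralogs, leaving out Rps27a. Earlier results of these data were known when these genes were chosen. The rule took 89 of 55450 genes. Of these, 76 are core genes (30 small subunit, 46 large subunit), 8 are minor paralogs (Rps4l, Rps27l, Rpl3l, Rpl7l1, Rpl10l, Rpl22l1, Rpl36al and Rpl39l) and 5 are near-identical copies that the annotation calls pseudogenes (Rps3a2, Rps3a3, Rps12l1, Rpl6l and Rpl32l). A filter on low counts let 86 of the 89 into the test, among them all 76 core genes.

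The data are RNA-seq counts of naive CD8 T cells from mouse lymph node, sorted as Ly6C-CXCR3-, in 3 CD103KO (Itgae-/-) and 3 WT (C57BL/6) samples. Itgae encodes CD103, an integrin subunit that binds E-cadherin together with integrin beta 7. Age, sex, the strain background of the Itgae-/- mice and whether each sample is its own animal are not in the labels. The spread behind the p-values is therefore that between samples and may in part be technical. Total expected counts were 68292475 to 76044311 in CD103KO libraries and 74438908 to 94347034 in WT libraries. Itgae itself had 67.9, 67.9 and 61.1 CPM (counts scaled to a common library size with TMM factors) in CD103KO libraries, against 491, 495 and 460 CPM in WT libraries (log2 fold change -2.88, adjusted p = 4.058e-08, edgeR quasi-likelihood test). WT replicate 3 stood apart within its group: Xist had 2, 1 and 0 counts in CD103KO libraries, against 5012, 7628 and 1 in WT libraries, and the Y-linked Ddx3y had 3944, 3714 and 3612 counts in CD103KO libraries, against 0, 0 and 4466 in WT libraries. WT replicate 3 was thus the only WT library that matched the CD103KO libraries in these genes. WT replicates 1 and 2 differed from every CD103KO library in both, as female and male samples would. The comparison of groups is therefore partly confounded with this difference. Against WT replicates 1 and 2, it and the genotype cannot be told apart. Summed markers of CD8 T cells (Cd8a, Cd8b1, Cd3e, Cd3d, Trac, Lck) were 5566 to 5870 CPM in CD103KO and 5573 to 5959 CPM in WT libraries.

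Most vertebrate ribosomal protein mRNAs begin with a C followed by a run of pyrimidines, the terminal oligopyrimidine or TOP motif. Through this motif mTORC1 and the RNA-binding protein Larp1 control how much of each mRNA is translated. Resting T cells hold abundant ribosomal protein mRNA and raise its translation after activation. Because the proteins are needed in nearly equal numbers, their mRNAs are usually regulated together.

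The start-site letters are shown here because they are the sequence feature that marks these genes as a group. Of the 89 genes, 65 were matched by symbol in a table of RefSeq start sites (GRCm38.p6), and 57 of the core genes had 67 annotated starts. In the 30 bases centred on the start, CTTTC or CTTTT was present at 20 of 67 core starts (29.9%), against 2288 of 32851 starts of all genes (6.96%). The same words on the other strand (GAAAG or AAAAG) were present at 5.97% of core starts and 6.34% of all starts. Both words share their first 4 letters, and they can overlap each other. A C as the annotated first base was found at 31.3% of core starts and 16.3% of all starts. RefSeq starts can lie several bases from the base used in a given cell, and over 300 bases the words were at 82.1% of core and 53.7% of all starts. In each of these windows the annotated first base is the 16th letter, and capitals mark CTTTC or CTTTT.
Rps6 (chr4:86857353-86857382, minus strand): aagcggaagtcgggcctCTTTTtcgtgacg
Rplp2 (chr7:141447636-141447665, plus strand): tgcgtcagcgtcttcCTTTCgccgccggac
Rpl38 (chr11:114668565-114668594, plus strand): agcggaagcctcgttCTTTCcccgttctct
Rps27 (chr3:90213634-90213663, minus strand): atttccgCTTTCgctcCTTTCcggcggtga
Rps27l (chr9:66946071-66946100, plus strand): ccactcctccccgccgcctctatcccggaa
Rpl22 (chr4:152325711-152325740, plus strand): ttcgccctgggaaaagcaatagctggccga
Rpl22l1 (chr3:28805493-28805522, plus strand): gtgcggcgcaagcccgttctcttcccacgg
Rpl39 (chrX:37085208-37085237, minus strand): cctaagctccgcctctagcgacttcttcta
Rpl39l (chr16:10170213-10170242, plus strand): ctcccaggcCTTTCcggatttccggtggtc

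Rps6, Rplp2 and Rpl38 have the word at or just after the annotated first base, which is a C in all 3. Rps27 holds it at 2 places, while none of the windows shown for its paralog Rps27l, for Rpl22, for Rpl22l1 or for Rpl39 holds it. Rpl39l holds it ahead of the annotated start. Over the minor paralogs it was present at 1 of 9 starts, and over mitochondrial ribosomal protein genes, whose mRNAs are not of the TOP class, at 5.33% of 75 starts. A missing word says only that these letters are not in that window. The 20 core genes with the word had a median log2 fold change (CD103KO over WT) of -0.063, and the 37 matched core genes without it had -0.068.

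Ribosomal protein mRNAs took a slightly smaller part of the CD103KO libraries. Together the 89 genes held 14.8, 15.2 and 14.8% of all counts in CD103KO libraries, against 15.5, 15.7 and 15.9% in WT libraries. The groups did not overlap, with means of 14.9 ± 0.196% in CD103KO and 15.7 ± 0.174% in WT (SD, n = 3 each), a ratio of 0.951. Shares of counts are relative, and in sorted bulk samples fewer cells with these mRNAs and less mRNA per cell cannot be told apart.

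Both subunits held a smaller share by a similar factor. Core small subunit genes held 6.54 ± 0.077% of counts in CD103KO and 6.89 ± 0.077% in WT libraries. For core large subunit genes the shares were 8.34 ± 0.121% in CD103KO and 8.76 ± 0.097% in WT libraries (SD, n = 3 each). The ratio of small to large subunit counts was 0.788, 0.781 and 0.781 in CD103KO libraries, against 0.786, 0.787 and 0.786 in WT libraries. CD103KO replicate 1 lay above all 3 WT libraries and the other 2 CD103KO libraries lay below them, so the groups overlapped in this ratio. Counted per kb of mRNA it was 0.861 ± 0.0054 in CD103KO and 0.863 ± 0.0010 in WT (SD, n = 3 each).

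**Figure D1:**
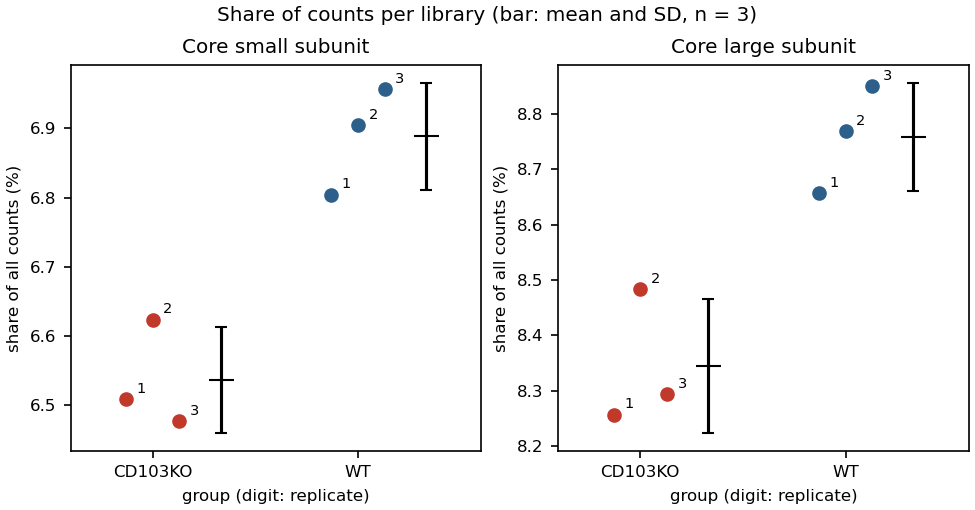
Share of all counts (%, y axes not starting at 0) held by core small subunit (left) and core large subunit (right) genes in each CD103KO and WT library; digits are replicate numbers, and bars show the mean and SD (n = 3). The CD103KO libraries lie below every WT library in both panels, with CD103KO replicate 2 the highest of its group.

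No single gene of the family passed the test. With edgeR's quasi-likelihood test, 0 of 86 tested genes had an adjusted p under 0.05, where 0.223% of all 13470 tested genes did (0.0817% lower and 0.141% higher in CD103KO). The smallest adjusted p among them was 0.434 (edgeR). DESeq2 and limma-voom also called 0 of them, while DESeq2 called 1.02% of all tested genes. At an unadjusted p under 0.05, 16 of the 86 were lower in CD103KO and 0 were higher, where 4.2% of all tested genes were lower and 8.73% differed in either direction. That count of 16 was not steady: it was 3, 8 and 1 without CD103KO replicates 1, 2 and 3, and 10 without WT replicate 1. The share of all tested genes under that limit is not given for these smaller fits.

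The fold changes were small and nearly all of one sign. Of the 86 tested genes, 82 had a negative log2 fold change, where 51% of all tested genes did. Their median was -0.068, against -0.003 over all tested genes. In 48 of the 86, every CD103KO library lay below every WT library, where 7.38% of all tested genes showed this. In 0 of the 86 did every CD103KO library lie above every WT library, where 6.82% of all tested genes did. Other genes of high level leaned the other way: 759 tested genes at 200 CPM or more, a limit chosen after their values were seen, had a median of 0.030, with 4.87% wholly lower and 13.04% wholly higher in CD103KO.

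The core genes differed little among themselves. Their log2 fold changes ran between -0.12 (Rpl30) and 0.0044 (Rpl31), and 75 of 76 were negative. Their SD over the 76 genes was 0.024, and the median standard error of a single gene, which includes library shifts that the genes share, was 0.037. As a share of the counts of all 89 genes, which removes a shared shift, the genes at both ends separated. Rpl30 held 0.904, 0.885 and 0.874% in CD103KO libraries, against 0.914, 0.926 and 0.914% in WT libraries. Rpl31 held 1.06, 1.06 and 1.08% in CD103KO libraries, against 1.02, 0.998 and 1.03% in WT libraries. Neither gene's groups overlapped in this share, and the genes were picked for their fold changes, so the shares are a description. Small subunit genes had a median of -0.071 with 30 of 30 negative, and 22 of 30 were lower in every CD103KO library. Large subunit genes had a median of -0.063 with 45 of 46 negative, and 25 of 46 were lower in every CD103KO library. Over all tested genes this share was 7.38%. Because the genes share library shifts, these counts are not independent results of single genes. Across the 76 core genes, as a description over genes of the same 6 libraries, the fold change had Spearman coefficients of 0.032 with mRNA length, 0.082 with GC content and -0.090 with mean CPM. Over the 759 other abundant genes the coefficient with mRNA length was 0.310.

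**Figure D2:**
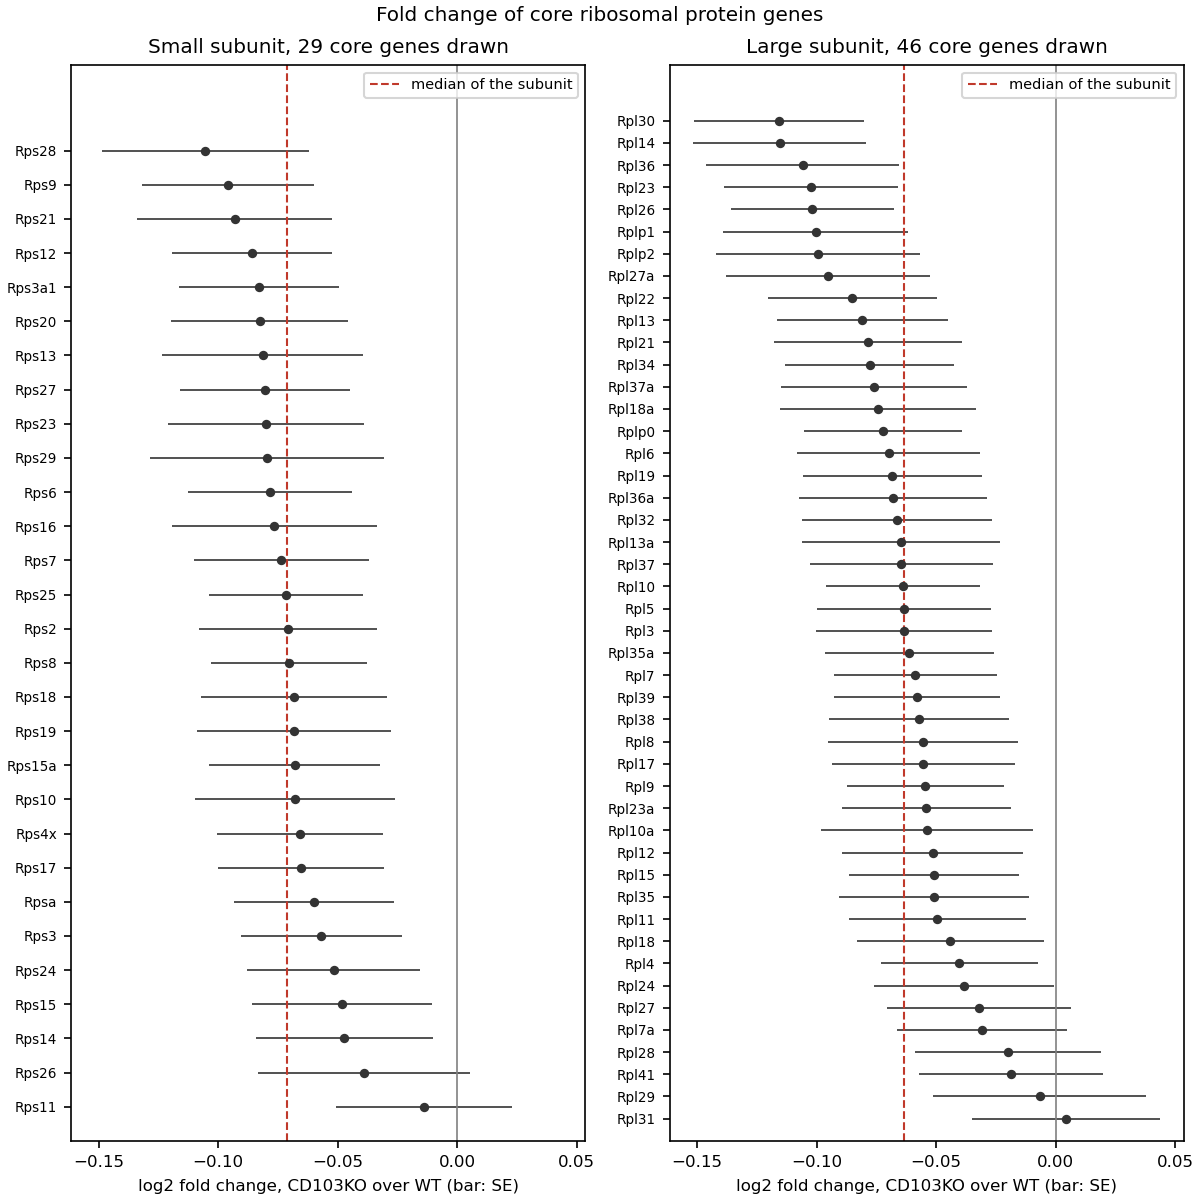
Log2 fold change (CD103KO over WT, x axis; bars are SE) of 29 of the 30 small subunit (left) and all 46 large subunit (right) core genes, ordered by value. All points but Rpl31 lie below 0, between -0.12 and 0.0044, and most bars span the dashed median of their subunit (-0.071 and -0.063, over all 30 and 46).

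Among small subunit proteins, Rps28, a protein of the 40S head, had 1166, 1168 and 1159 CPM in CD103KO libraries, against 1209, 1222 and 1328 CPM in WT libraries (log2 fold change -0.11, SE 0.043, adjusted p = 0.535, edgeR). The CD103KO values lay close together, and WT replicate 3 was well above the other WT libraries. Rps9, a 40S protein important for decoding accuracy, had 2753 ± 43.1 CPM in CD103KO and 2942 ± 78.6 CPM in WT (SD, n = 3 each; log2 fold change -0.096).

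Rps12 and Rps3a1 showed the tightest WT groups of the small subunit genes with the smallest p. Rps12 had 1397, 1420 and 1445 CPM in CD103KO libraries, against 1503, 1511 and 1509 CPM in WT libraries. Rps3a1 had 3897, 3961 and 3807 CPM in CD103KO libraries, against 4104, 4120 and 4132 CPM in WT libraries. In neither gene was WT replicate 3 far from the other WT libraries. Their log2 fold changes were -0.086 and -0.083, with adjusted p of 0.514 and 0.523 (edgeR).

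Rps6 is the protein that S6 kinase phosphorylates downstream of mTORC1. Its mRNA had 2916, 2918 and 2922 CPM in CD103KO libraries, against 3057, 3024 and 3166 CPM in WT libraries (log2 fold change -0.079, SE 0.034, adjusted p = 0.569, edgeR). The groups did not overlap. Rps19 and Rps14, whose loss causes Diamond-Blackfan anaemia and contributes to the anaemia of the 5q- syndrome in people, overlapped between groups. Rps19 had 1570 ± 25.8 CPM in CD103KO and 1646 ± 67.9 CPM in WT, and Rps14 had 1782 ± 23.3 CPM in CD103KO and 1841 ± 56.8 CPM in WT (SD, n = 3 each). Rpsa, a 40S protein also known as the laminin receptor, had 5094, 5261 and 5236 CPM in CD103KO libraries, against 5399, 5366 and 5488 CPM in WT libraries, with no overlap (log2 fold change -0.060).

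Among large subunit proteins, Rpl30 and Rpl14, both structural proteins of the 60S subunit, had the lowest log2 fold changes of the core genes. Rpl30 had 1337, 1346 and 1303 CPM in CD103KO libraries, against 1411, 1436 and 1473 CPM in WT libraries (log2 fold change -0.12, SE 0.035, adjusted p = 0.434, edgeR). Rpl14 had 1338, 1286 and 1330 CPM in CD103KO libraries, against 1409, 1413 and 1462 CPM in WT libraries (log2 fold change -0.12, SE 0.036). Both genes were lower in every CD103KO library, and neither passed the test. Rpl36, another large subunit protein, had 612 ± 18.6 CPM in CD103KO and 658.5 ± 19.6 CPM in WT (SD, n = 3 each; log2 fold change -0.11). At the other end, Rpl31, which sits near the exit of the peptide tunnel, had 1569, 1616 and 1612 CPM in CD103KO libraries, against 1572, 1548 and 1663 CPM in WT libraries, and its groups overlapped.

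The stalk recruits elongation factors to the ribosome and is made of Rplp0 with pairs of the acidic proteins Rplp1 and Rplp2, on a base that holds Rpl12. Rplp1 had 3270, 3379 and 3283 CPM in CD103KO libraries, against 3427, 3540 and 3680 CPM in WT libraries. Rplp2 had 1939, 1999 and 2007 CPM in CD103KO libraries, against 2078, 2051 and 2238 CPM in WT libraries. Rplp0 had 5030, 5223 and 5118 CPM in CD103KO libraries, against 5394, 5351 and 5414 CPM in WT libraries. These 3 genes did not overlap between groups, with log2 fold changes of -0.10, -0.099 and -0.072. Rpl12, at 3334 ± 53.0 CPM in CD103KO and 3455 ± 118 CPM in WT (SD, n = 3 each), did overlap. Rpl5 and Rpl11, which carry the 5S ribosomal RNA into the large subunit and, outside it, bind the p53 regulator Mdm2, had log2 fold changes of -0.063 and -0.050. Rpl5 was lower in every CD103KO library (3476 ± 57.8 CPM in CD103KO, 3632 ± 102 CPM in WT; SD, n = 3 each), and Rpl11 overlapped (1425 ± 37.4 CPM in CD103KO, 1475 ± 31.2 CPM in WT).

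Library by library, the core genes showed that the distance between the groups depends on which libraries are set against each other. The mean over core genes of log2 CPM, relative to the mean of the 6 libraries, was -0.052, -0.010 and -0.038 in CD103KO libraries, against 0.0086, 0.016 and 0.074 in WT libraries. WT replicate 3 was the highest library for 70 of the 76 core genes, and CD103KO replicate 1 was the lowest for 41. CD103KO replicate 2 lay closest to WT: it was below WT replicate 1 in 51 of 76 core genes and below WT replicate 2 in 61 of 76. CD103KO replicate 1 was below these WT libraries in 72 and 75 of 76 core genes, and CD103KO replicate 3 in 66 and 71. All 76 core genes were below WT replicate 3 in each CD103KO library.

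The libraries of the WT group also differed among themselves. Against WT replicates 1 and 2 only, the CD103KO mean had a median log2 ratio of -0.046 over core genes, with 72 of 76 lower. The mean of WT replicates 1 and 2 had a median log2 ratio of -0.063 to WT replicate 3, with 73 of 76 lower. Without WT replicate 3, the fit over all genes gave a median log2 fold change of -0.048 over the 86 tested genes, with 79 negative. With a term for the libraries with Xist reads, which compares the CD103KO libraries with WT replicate 3, the median was -0.107 and 82 were negative. The fit without WT replicate 3 called 0 genes of the family (edgeR), where it called 52 of all tested genes. In that fit 14 of the family were at an unadjusted p under 0.05, and the share of all tested genes under that limit is not given here. The fit with the Xist term rests on WT replicate 3 as the lone WT library, so only its median and signs are given here. The lead of WT replicate 3 was smaller with library totals alone, where it was the highest library for 51 core genes. It was the highest for 70 with TMM and for 71 to 72 under other scaling factors. With these totals 58 core genes were lower in every CD103KO library, against 47 with TMM and 44 to 57 under other scaling factors. Over all tested genes this share was 7.56% with library totals, 7.38% with TMM and 7.24 to 8.05% under the other factors.

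**Figure D3:**
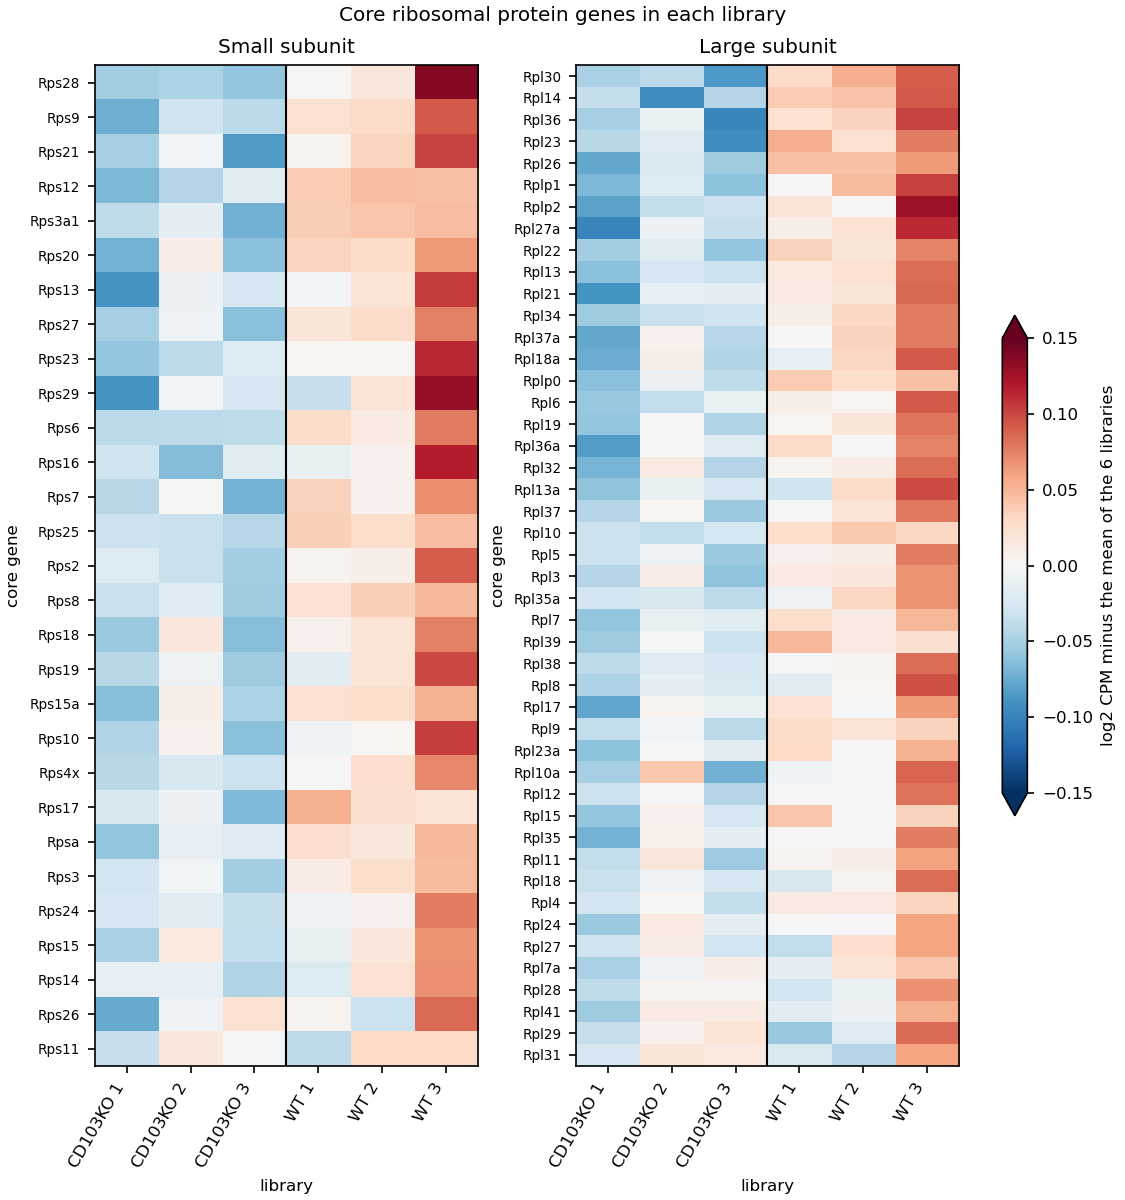
Log2 CPM minus the mean of the 6 libraries (colour) for 75 of the 76 core genes (rows, ordered by fold change) in 3 CD103KO (left of the line) and 3 WT libraries. CD103KO columns are mostly blue and WT columns mostly red, with the strongest red in WT replicate 3, the highest library for 70 of all 76 core genes, and the palest blue in CD103KO replicate 2.

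Summed markers of B cells and of erythrocytes and platelets also differed between the groups. Summed B cell markers (8 genes) were 48.8 to 59.3 CPM in CD103KO and 38.1 to 45.1 CPM in WT libraries, with 8 of 8 higher in CD103KO on average, 3 of them called (edgeR). Summed erythrocyte and platelet markers (7 genes, 5 of them higher in CD103KO on average, Pf4 at 0) were 57.4 to 93.0 CPM in CD103KO and 32.98 to 50.1 CPM in WT libraries. In this list 0 were called (edgeR), where 0.223% of all tested genes were. Ranges overlapped for CD4 T cell markers (4 genes, 3.16 to 4.52 CPM in CD103KO, 2.78 to 3.89 CPM in WT), myeloid markers (6 genes, Cd14 at 0, 2.86 to 3.73 CPM in CD103KO, 2.63 to 4.59 CPM in WT) and lymph node stroma markers (7 genes, Pdpn at 0, 127 to 167 CPM in CD103KO, 136 to 151 CPM in WT). Nearly all of the stroma sum was Pecam1, at 146 CPM in CD103KO and 143 CPM in WT on average. Col1a1 had 0.428 CPM in CD103KO and 0.293 CPM in WT, and the remaining stroma markers were lower still. The part of transcripts from other cells in the ribosomal protein result was not tested.

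The 6 core genes on chromosome 11, which carries Itgae, had fold changes within the range of the other core genes. Rpl26, a large subunit protein that also binds p53 mRNA, lies nearest, 4.18 Mb from Itgae. It had 1197, 1242 and 1217 CPM in CD103KO libraries, against 1302, 1302 and 1320 CPM in WT libraries (log2 fold change -0.10, SE 0.034, adjusted p = 0.449, edgeR). Rpl23a, 5.03 Mb away, had 2706 ± 57.6 CPM in CD103KO and 2809 ± 51.1 CPM in WT (SD, n = 3 each; log2 fold change -0.054). Both were lower in every CD103KO library. Of the 4 farther away, Rpl23 (24.6 Mb), which can bind Mdm2, had 2386 ± 62.3 CPM in CD103KO and 2562 ± 48.3 CPM in WT (SD, n = 3 each; log2 fold change -0.10). Rpl19 (24.9 Mb), Rpl27 (28.3 Mb) and Rpl38 (41.5 Mb), the last known in mice for its part in the translation of Hox mRNAs, had log2 fold changes of -0.068, -0.032 and -0.057. The median of the 6 was -0.063, and 5 of them were lower in every CD103KO library, as were 47 of the 76 core genes and 7.38% of all tested genes. Rpl27 overlapped.

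The X-linked core genes are Rps4x, Rpl10, Rpl36a and Rpl39. Rpl10, which joins the large subunit late and lies near the peptidyl transferase centre, had 1618, 1613 and 1626 CPM in CD103KO libraries, against 1686, 1701 and 1691 CPM in WT libraries. Rpl39, a small protein of the peptide tunnel, had 696, 721 and 706 CPM in CD103KO libraries, against 747, 728 and 734 CPM in WT libraries. In both genes WT replicate 3 lay between the other WT libraries, unlike in most core genes. Rps4x had 3021, 3057 and 3040 CPM in CD103KO libraries, against 3111, 3162 and 3269 CPM in WT libraries, without overlap. Rpl36a had 814 ± 24.6 CPM in CD103KO and 853 ± 22.4 CPM in WT (SD, n = 3 each) and overlapped. The median log2 fold change of the 4 genes was -0.065, and -0.084 with the Xist term, where the core genes had -0.107.

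Levels between genes are compared here per kb of annotated mRNA, as means over the 6 libraries. The middle 50% of core genes lay between 1735 and 3132 CPM per kb, a 1.81-fold range, with a median of 2280. Rps24, Rps27 and Rps29 were the highest of the small subunit, and Rps24, which people with Diamond-Blackfan anaemia can carry in mutated form, had 7335 CPM per kb in CD103KO and 7602 in WT. Rplp1, Rpl23a and Rplp2 led the large subunit, with Rplp1 at 6635 CPM per kb in CD103KO and 7112 in WT. The lowest core gene was Rpl22, at 285 CPM per kb in CD103KO and 303 in WT. Rps15a, Rps20 and Rpl22 have long annotated mRNAs of 5130, 3706 and 2048 bases. Per kb of coding sequence Rps15a (4256 CPM per kb) and Rps20 (5012) were no longer low, while Rpl22 (1569) stayed second to Rpl24, the lowest (1557). Rpl41, which encodes the shortest of these proteins, was highest per kb of coding sequence (13418), and the middle 50% of genes spanned 1.77-fold. The median level of small subunit genes was above that of large subunit genes by either length, at 2912 against 2009 CPM per kb of mRNA and 4201 against 3192 CPM per kb of coding sequence.

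Minor paralogs are genes related in sequence or name to a ribosomal protein gene, some of which are used in particular tissues. Within each pair, the share of the pair's counts that came from the minor paralog does not depend on library scaling. Rpl22 is an RNA-binding large subunit protein that mice need for the development of alpha beta T cells, and Rpl22l1 is its paralog. Rpl22l1 made up 27.4, 25.9 and 24.9% of the pair in CD103KO libraries, against 25.4, 26.7 and 25.1% in WT libraries. The groups overlapped. Per kb of annotated mRNA Rpl22l1 made up 57.1%, with the annotated Rpl22 mRNA at 2048 bases. Per kb of coding sequence it was the lower of the pair, at 578 CPM per kb against 1569 for Rpl22. Rpl22 itself had 581, 595 and 579 CPM in CD103KO libraries, against 617, 610 and 634 CPM in WT libraries, with no overlap (log2 fold change -0.085, SE 0.035, adjusted p = 0.541, edgeR). Rpl22l1 had 206 ± 14.1 CPM in CD103KO and 215 ± 6.47 CPM in WT (SD, n = 3 each), with overlap.

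Rpl36al, an autosomal copy of the X-linked Rpl36a, made up a very even part of its pair. Its share was 25.02, 24.93 and 24.90% in CD103KO libraries, against 25.17, 24.80 and 25.15% in WT libraries. The mRNA of Rpl7l1, a distant relative of Rpl7, aligned with that of Rpl7 over only 17 bases. Rpl7l1 made up 4.37, 4.67 and 4.75% of the summed counts in CD103KO libraries, against 4.50, 4.10 and 3.98% in WT libraries. CD103KO replicate 1 lay below WT replicate 1, so the groups overlapped. Rpl7l1 had 103, 114 and 116 CPM in CD103KO libraries, against 112, 101 and 101 CPM in WT libraries (log2 fold change 0.081, SE 0.060, adjusted p = 0.735, edgeR), where Rpl7 had 2298 ± 41.6 CPM in CD103KO and 2393 ± 31.3 CPM in WT (SD, n = 3 each).

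The other paralogs were rare in these cells. Rps27l, a p53 target gene, made up 1.11 ± 0.114% of its pair in CD103KO and 1.07 ± 0.107% in WT (SD, n = 3 each). Rpl39l, known for its expression in testis, made up 0.0626, 0.0549 and 0.0674% of its pair in CD103KO libraries, against 0.0464, 0.0559 and 0.133% in WT libraries. WT replicate 3 alone made its WT mean the higher one. Rps4l, which the annotation calls a transcribed pseudogene, made up 0.0309 ± 0.0089% of its pair in CD103KO and 0.0258 ± 0.011% in WT. Exact two-sided permutation tests of the log2 ratio within each of the 6 pairs gave p-values of 0.2 (Rpl7l1) to 0.9 (Rpl39l), 0.9 in each pair after Benjamini-Hochberg adjustment over the 6, and 0.1 is the smallest p that 3 against 3 allows. Rpl3l, the heart and skeletal muscle form of Rpl3, had 0, 0 and 2 counts in CD103KO libraries, against 0, 4 and 0 in WT libraries. Rpl10l, the testis form of Rpl10, had 0 counts in every library, with a floor of 3 counts per library.

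**Figure D4:**
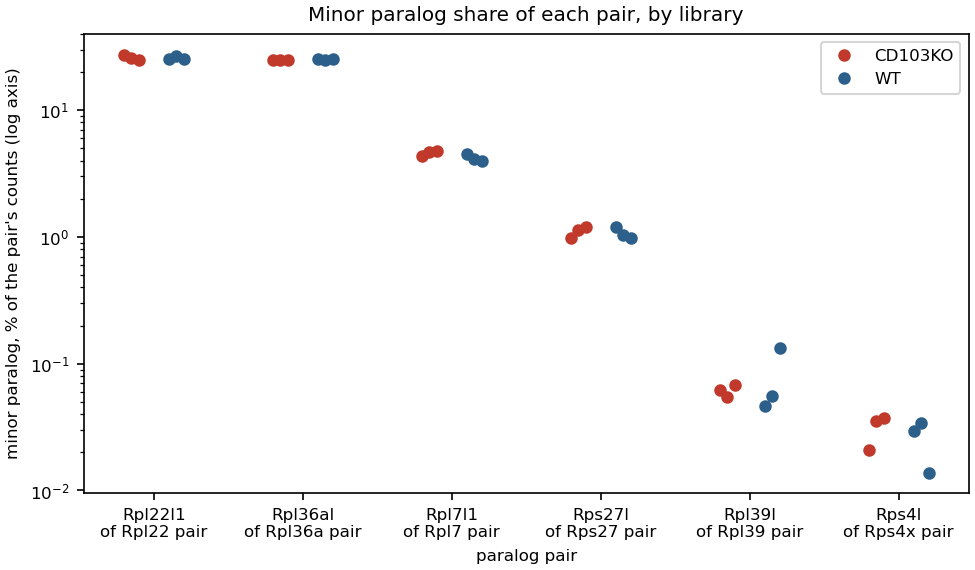
Minor paralog counts as a percentage of the pair's counts (log y axis) in each CD103KO (red) and WT (blue) library, for the 6 pairs with enough counts; points are libraries. Rpl22l1 and Rpl36al supply 24.8 to 27.4% of their pairs in every library, and Rpl39l in WT replicate 3 (0.133%) lies apart from its group.

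Copies close in sequence to a core gene can trade reads with it, so their counts are uncertain. Rps3a2 and Rps3a3 are 99.5% and 98.9% identical to the Rps3a1 mRNA over 792 and 795 bases, Rpl6l is 98.7% identical to Rpl6 over 871 bases, and Rps12l1 is 100% identical to Rps12 over 399 bases. Rps3a2 had 14.0, 14.1 and 13.4 CPM in CD103KO libraries, against 15.9, 15.1 and 14.8 CPM in WT libraries, lower in every CD103KO library, like Rps3a1. Rps12l1 had 0.511, 0 and 1.03 CPM in CD103KO libraries, against 0.568, 0 and 1.28 CPM in WT libraries; a listed 0 beside an identical, abundant gene can be a failed estimate. Rpl6l had 8.67 ± 1.02 CPM in CD103KO and 9.85 ± 1.00 CPM in WT, and Rps3a3 had 1.15 ± 0.204 CPM in CD103KO and 1.05 ± 0.136 CPM in WT (SD, n = 3 each), both with overlap. Rpl32l, which was not tested, had 9.57, 9.03 and 8.74 counts in CD103KO libraries, against 8.42, 16.26 and 9.3 in WT libraries. The table has 300 further genes named as pseudogenes of these families. They held 0.0861 ± 0.0036% of counts in CD103KO and 0.0919 ± 0.0035% in WT (SD, n = 3 each). Of 102 tested, 77 had negative log2 fold changes (median -0.092), where 51% of all tested genes did. Some of these rows, such as Rps19-ps1 and Rps19-ps2, have the same counts in every library and are not separate results. With edgeR 0 of the 102 were called, where 0.223% of all tested genes were. At an unadjusted p under 0.05 were 3 of the 102, where 8.73% of all tested genes were. The 2 with the smallest p were Rpl38-ps2 (10.9 ± 0.419 CPM in CD103KO, 13.3 ± 1.12 CPM in WT) and Rps13-ps1 (18.6 ± 2.51 CPM in CD103KO, 22.8 ± 1.68 CPM in WT). With the counts of these rows added to their parent genes, the median of the 86 was -0.071.

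Genes tied to the ribosome but outside the symbol rule were set beside the family. In the lists that follow, and in the pseudogene list, DESeq2 and limma-voom called 0 genes, with the exception of Mrpl55 in DESeq2. Rps27a and Fau encode a ribosomal protein fused to ubiquitin (Rps27a) or to a ubiquitin-like protein (Fau). Rps27a had 1633 ± 24.4 CPM in CD103KO and 1713 ± 49.2 CPM in WT, without overlap, and Fau had 1228 ± 29.99 CPM in CD103KO and 1286 ± 49.7 CPM in WT, with overlap (SD, n = 3 each). Their log2 fold changes were -0.069 and -0.066, near the core median.

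Other mRNAs of the TOP class leaned the same way. Of 19, among them elongation factors, 18 had negative log2 fold changes (median -0.058), and 10 were lower in every CD103KO library, where 7.38% of all tested genes were. In this list 0 were called (edgeR), where 0.223% of all tested genes were, and 4 were at an unadjusted p under 0.05, where 8.73% of all tested genes were. The same shares over all tested genes apply to the counts in the lists that follow. The 2 with the smallest p were Eef1d, a subunit of the exchange factor of eEF1A (247 ± 1.31 CPM in CD103KO, 265 ± 5.76 CPM in WT; log2 fold change -0.11), and Nap1l1, a histone chaperone (292 ± 7.93 CPM in CD103KO, 318 ± 13.5 CPM in WT; log2 fold change -0.12). Rack1, a scaffold protein of the 40S subunit, had a log2 fold change of -0.059 and overlapped.

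Regulators and builders of the ribosome did not lean that way. Of 18 regulators of TOP mRNAs and of mTORC1, 7 had negative log2 fold changes (median 0.024), and 0 were called (edgeR), with 2 at an unadjusted p under 0.05. These were Tsc2, a brake on mTORC1 (55.0 ± 2.10 CPM in CD103KO, 50.2 ± 2.95 CPM in WT), and Rptor, a subunit of mTORC1 (64.7 ± 2.32 CPM in CD103KO, 59.4 ± 3.27 CPM in WT). Larp1, on chromosome 11, had 198 ± 4.31 CPM in CD103KO and 192 ± 4.99 CPM in WT, with overlap. Of 50 ribosome biogenesis genes, 14 had negative log2 fold changes (median 0.034), and 0 were called (edgeR), with 4 at an unadjusted p under 0.05. Imp3, a protein of the small subunit processome, had 62.4 ± 1.04 CPM in CD103KO and 68.6 ± 0.793 CPM in WT, and Heatr1, which acts in ribosomal RNA transcription and processing, had 157 ± 10.3 CPM in CD103KO and 141 ± 4.21 CPM in WT (SD, n = 3 each).

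Mitochondrial ribosomal proteins, which build a separate ribosome, stood between. Of 78, 51 had negative log2 fold changes (median -0.025), and 0 were called (edgeR), with 3 at an unadjusted p under 0.05. Mrpl55 had 7.95, 8.31 and 7.35 CPM in CD103KO libraries, against 10.7, 10.5 and 10.4 CPM in WT libraries (log2 fold change -0.42, SE 0.073, adjusted p = 0.101, edgeR). It passed with DESeq2 (adjusted p = 0.0026) and with edgeR without the filter on low counts (adjusted p = 0.025). Mrpl22 had 15.5 ± 0.639 CPM in CD103KO and 17.2 ± 0.675 CPM in WT (SD, n = 3 each; log2 fold change -0.15). Both genes are on chromosome 11.

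**Figure D5:**
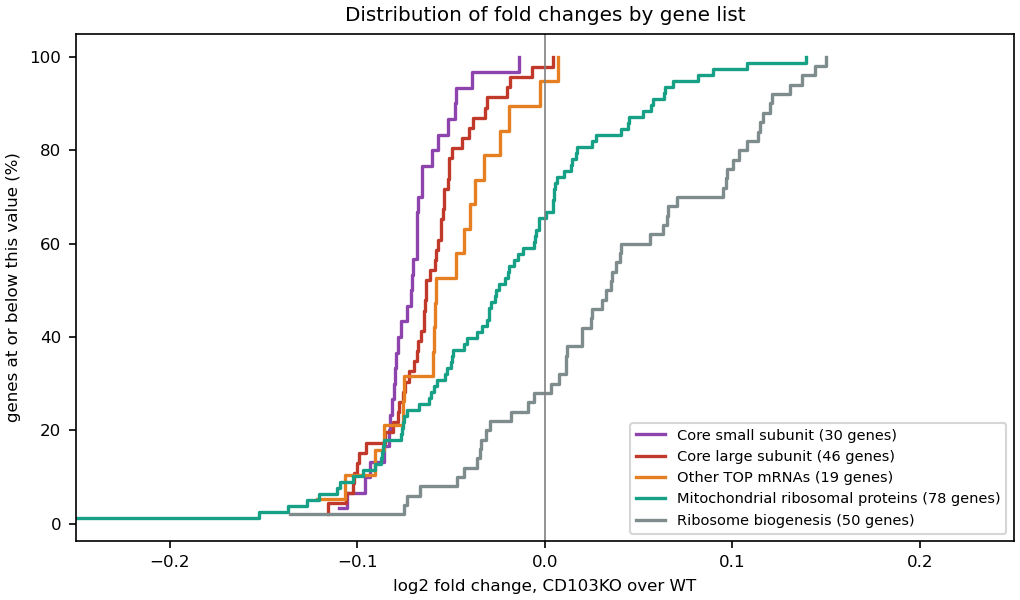
Share of genes (%, y axis) at or below each log2 fold change (CD103KO over WT, x axis) for core small subunit, core large subunit, other TOP, mitochondrial ribosomal protein and ribosome biogenesis genes; Mrpl55 (-0.42) lies outside the axis. The curves of both cytosolic subunits and of the other TOP mRNAs are steep and almost wholly left of 0, and that of ribosome biogenesis lies mostly right of it, with 36 of 50 genes above 0.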

How the data were processed

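Polyadenylated RNA of 6 samples was sequenced with a stranded mRNA kit, per the labels' protocols. The submitters' processing notes name RSEM, STAR 2.7.0f, cutadapt 1.18 and bcl2fastq 2.20, and the builds mm10 and GRCm38. How multiply aligned reads and strand were treated is not given in the sources used here. Values are expected counts that the authors deposited for each gene in each library without normalization. Of them 6.48% were not whole, and all were rounded for testing. All 55450 identifiers matched GENCODE M21, the source of lengths and coordinates.

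CD103KO was compared with WT over 13470 genes with edgeR 4.0.16 under R 4.3.3 (a filterByExpr minimum count of 10, TMM, quasi-likelihood F test on group, Benjamini-Hochberg, 0.05). A trial on simulated data used larger fold changes than those of the core genes, so it does not cover shifts of their size. One count equals 0.0104 to 0.0147 CPM, and limits from counts cover counting error only. Copies were aligned with BLAST+ 2.17.0. SciPy 1.17.1 gave exact permutation tests of paralog ratios, for pairs whose minor paralog had a mean of at least 10 counts. Alternatives were other scalings and filters, unrounded counts, DESeq2 1.42.0, limma-voom (3.58.1), a term for Xist reads (above 1 CPM), a replicate block and each library left out. Scaling by library totals alone was added after seeing the data. The members and lists were chosen with earlier results of these data known.

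Genes named in the text are Itgae; the paralogs with their main genes; the stalk; Rpl5, Rpl11, Rps6, Rps19, Rps14, Rpsa, Rack1, Fau, Rps27a and Larp1; members on chromosomes 11 and X; per subunit the 3 highest and 3 lowest per kb and the 5 of smallest p; the 3 highest and 3 lowest log2 fold changes; untested members; and per list the 2 of smallest p. Rpl31, Rpl24, Rpl41, Rps15a, Rps20, Rps3a2 and the start-site examples were chosen after their values were seen. A few genes that this rule takes are not reported here, though counts and medians include them.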

Additional observations from a re-analysis of the deposited data

How the results depend on the processing

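No setting run called any gene of the family, and 79 to 84 of the tested ones had a negative log2 fold change under each. The count at an unadjusted p under 0.05 (16) was 39 without scaling factors, 26 with a filter of 1 CPM in 3 libraries, 26 with limma-voom, 53 with the Xist term, 40 with only the libraries without Xist reads, and 1 to 14 with a library left out. The share of all tested genes under that limit is given only for the main fit. A change in this count therefore cannot be told from a change over all tested genes. No conclusion is drawn from the counts with the Xist term and without Xist libraries, where WT replicate 3 is the lone WT library. With the replicate number as a block the count was 7. Whether the numbers pair the samples is not known. Deviations from the group means had correlations of -0.195, -0.00078 and -0.043 in same-numbered libraries, and of -0.139 to 0.178 in differently numbered ones. With 3 libraries per group these values cannot decide it. The Xist term and the libraries without Xist reads, each resting on WT replicate 3 as the lone WT library, gave medians of -0.107 and -0.107 (core), -0.110 and -0.108 (large subunit), -0.102 and -0.102 (main paralogs), -0.130 and -0.129 (stalk), -0.097 and -0.096 (Rpl5 and Rpl11), -0.084 and -0.083 (X-linked), -0.113 and -0.113 (chromosome 11), -0.117 and -0.116 (the list with Rps27a and Fau), 0.056 and 0.057 (regulators) and -0.056 and -0.055 (mitochondrial). The regulators' median was 0.0059 with the filter of 1 CPM. With a library left out, the median was -0.066 to -0.040 for other TOP mRNAs and 0.011 to 0.072 for biogenesis. All genes called numbered 112 without a filter, 15 with the Xist term, 13 without Xist libraries, 137 with DESeq2 and 19 to 59 with a library left out; of mitochondrial genes, 1 was called without a filter and 1 with DESeq2. Per length, the share difference (CD103KO minus WT) was -0.580 points for the small and -0.627 points for the large subunit, against -0.352 and -0.414 by counts.

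Signs of rare genes turned: with a library left out, log2 fold changes were -0.66 to 0.21 for Rpl39l, -1.22 to 0.92 for Rps12l1 (0.31 with limma-voom), -0.082 to 0.056 for Rps27l (0.061 with the Xist term and 0.061 without Xist libraries), -0.030 to 0.24 for Rps3a3 and -0.089 to 0.45 for Rps4l. The log2 pair ratios were then -0.028 to 0.068 (Rpl22l1), -0.49 to 0.27 (Rpl39l), -0.013 to 0.14 (Rps27l) and -0.084 to 0.58 (Rps4l). The cause was not tested. Rpl39l, Rps4l and Rps12l1 averaged about 1 CPM or less, and Rps27l about 24.3 CPM in CD103KO and 24.8 CPM in WT.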
